A study of Mus musculus with 59 samples.

Results

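The effect of an expanded Atxn1 allele on the striatum was measured in 8 RNA-seq libraries, 4 from wildtype (WT) mice and 4 from Atxn1 154Q/2Q mice (154Q), out of 59 libraries in the series. Members were chosen by their labels: every striatal library labelled wildtype or 154Q. Libraries are called by genotype and mouse number, and lists of 4 values run in ascending order of mouse number (WT-70, WT-77, WT-220, WT-221, and 154Q-69, 154Q-71, 154Q-75, 154Q-76). All mice were labelled C57BL/6, with a C57BL/6J background in the study's methods, and were 10 weeks old, each library was the striatum of 1 mouse, and polyadenylated RNA was sequenced. The 154Q mice, a model of spinocerebellar ataxia type 1 (SCA1), carried the expanded CAG repeat in 1 endogenous Atxn1 allele in all cells, beside a normal 2Q allele, so no cell type was targeted. The other 4 striatal libraries came from 154Q-AXH mice, whose expanded allele has further substitutions that disrupt the binding of ATXN1 to CIC. They entered the fit for the estimate of spread and are not described for their own sake. Between 33030415 and 54719126 read pairs were counted on genes in the 8 libraries.

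ATXN1 is a broadly expressed nuclear protein that binds the transcriptional repressor CIC, and expansion of its polyglutamine tract causes SCA1. The striatum is built mainly of spiny projection neurons (SPNs), GABAergic cells that read cortical glutamate and midbrain dopamine. D1 SPNs express the dopamine receptor Drd1 and the peptide precursors Tac1 and Pdyn, D2 SPNs express Drd2, Adora2a and Penk, and both contain the dopamine- and cAMP-regulated phosphoprotein DARPP-32, encoded by Ppp1r1b.

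The libraries were first checked against defining markers of striatum and of neighbouring cortex. The SPN markers plotted were above their cortical level in all 8 libraries, by unequal amounts. Ppp1r1b stood at 236% to 2537% of the mean of the WT cortical libraries and Drd2 at 1091% to 11251%. Penk came nearest to cortex, at 180% in 154Q-71 and 341% to 388% in the other 154Q libraries. Markers of cortical projection neurons, which the striatum lacks, were also abundant. Slc17a7, the vesicular glutamate transporter of cortical neurons, stood at 86.3%, 88.4% and 94.1% of the mean WT cortex in WT-70, WT-77 and WT-221, and at 67.1%, 73.6%, 64.9% and 63.9% in 154Q. Tbr1, a transcription factor of deep-layer cortical neurons, stood at 90.1%, 96.0% and 92.3% in the same WT libraries and at 70.4% to 87.3% in the 154Q libraries. WT-220 differed from the other 7, with Slc17a7 at 29.8% and Tbr1 at 34.0% of cortex and with the highest level of each of the SPN markers plotted. The libraries labelled striatum therefore held cortical transcripts at up to nearly the level of cortex, and WT-220 held far fewer. In the fit, the 13 cortical projection neuron markers had a mean log2 CPM (counts scaled to library size) of 6.66, 6.82, 5.33 and 6.81 in WT and of 6.42, 6.63, 6.30 and 6.40 in 154Q. The part of this difference in the results below was not tested beyond the fits named beside them. In bulk tissue, fewer cells of a type and less RNA per cell cannot be told apart. 154Q-75 was the 1 library of the 8 with a high level of Xist (507 CPM, against 0.963 to 5.92 in the others) and with almost no Ddx3y (0.958 CPM, against 62.0 to 79.4). Ttr, the leading choroid plexus transcript, reached 1399 CPM in WT-70 and 2286 CPM in 154Q-76 and stayed between 33.1 and 238 CPM in the other 6 libraries.

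**Figure D1:**
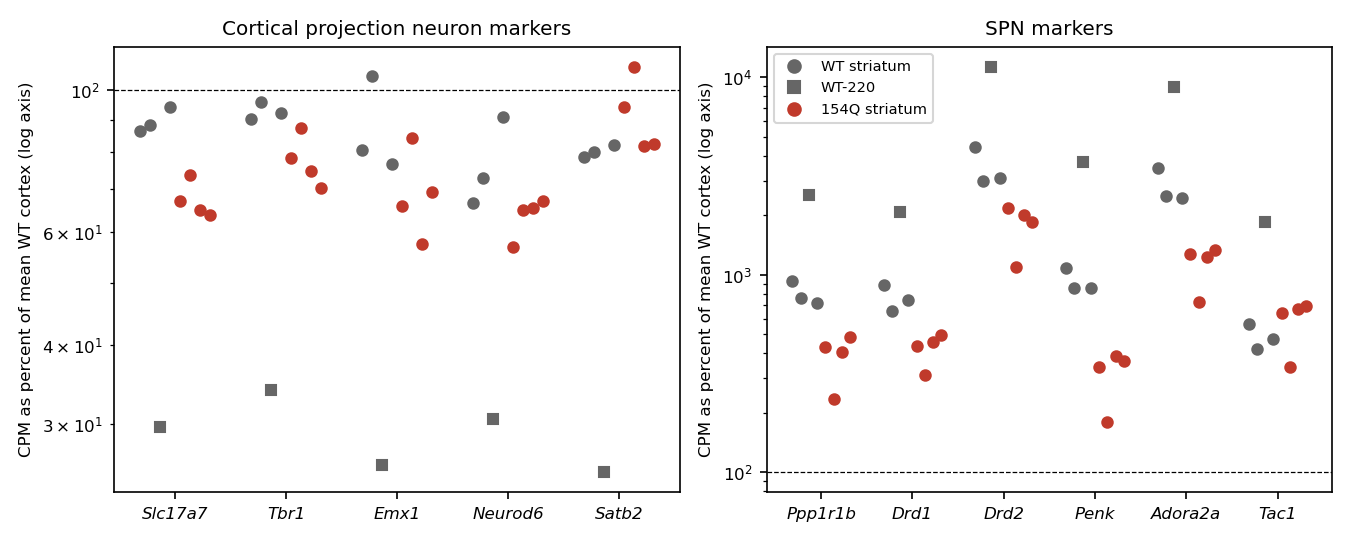
Level of cortical projection neuron markers (left) and SPN markers (right) in each striatal library, in CPM as a percent of the mean of the WT cortical libraries (dashed line, log axis). Each point is 1 mouse, grey for WT and red for 154Q, and the square is WT-220. The square lies lowest for every cortical marker and highest for every SPN marker, and the other points lie between 56.9% and 109% of cortex for the cortical markers.

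No difference in the level of Atxn1 itself was called. It was measured at 45.7, 46.9, 64.0 and 44.6 CPM in WT and at 56.7, 52.8, 46.3 and 49.0 CPM in 154Q. The groups overlapped, with a log2 fold change (154Q minus WT) of 0.02 ± 0.12 (SE) and an adjusted p of 0.93. These counts do not distinguish the expanded from the normal allele, so they are no check of the repeat. Cic and the further nuclear partners Rfx1, Zbtb5 and Zkscan1 were not called either, with log2 fold changes of 0.11, -0.01, 0.08 and 0.19. Of the 6 genes of this list 1 had an unadjusted p under 0.05, and DESeq2 called none.

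Of 18408 genes tested with edgeR's quasi-likelihood test, 1047 were called as DEGs at a Benjamini-Hochberg adjusted p under 0.05, which is 5.69% of the genes tested. Lowered DEGs outnumbered raised DEGs, 694 (3.77%) to 353 (1.92%). The effects of lowered genes were also larger. The median absolute log2 fold change was 0.64 over the lowered DEGs and 0.48 over the raised DEGs, against 0.17 over all genes tested, and 204 lowered but 53 raised DEGs changed by at least 1 on the log2 scale. The median over all DEGs was 0.57, and 451 of the 1047 had an absolute log2 fold change under 0.5. All 4 154Q libraries lay below all 4 WT libraries for 8.94% of the genes tested and above them for 8.17%.

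The share of genes called was larger among abundant genes. Among 2329 genes with a mean of at least 100 CPM over the 8 libraries, 31 were raised and 188 lowered, or 9.40% called, and the median log2 fold change of those lowered was -0.45. Among 3512 genes under 1 CPM, 36 were raised and 64 lowered, or 2.85% called, and the median log2 fold change of those lowered was -1.71. The median standard error fell from 0.34 in the lowest class to 0.09 in the highest, so smaller changes could be called among abundant genes.

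The number of DEGs moved with the libraries entered. Without WT-220, 1079 genes were called (5.79%), 281 raised (1.51%) and 798 lowered (4.28%), and 783 of the 1047 DEGs were called again. When the 2 libraries with few cortical transcripts (WT-220 and 154Q-AXH-217) were both left out, 2179 genes were called (11.8%), 799 raised (4.31%) and 1380 lowered (7.45%), and these held 999 of the 1047 DEGs. 154Q-AXH-217 is in neither compared group and enters only through the filter, the scaling and the estimate of spread. With the level of the cortical markers as a covariate, 3282 genes were called (17.8%), 7.58% raised and 10.3% lowered, and the 1047 DEGs were all among them. Both of these fits were chosen after seeing the data. DESeq2 called 1725 of the 18945 genes to which it gave an adjusted p (9.11%), 3.92% raised and 5.18% lowered. Mouse numbers in the labels form a lower and a higher series, and all 154Q mice are in the lower one with WT-70 and WT-77. Against these 2 WT mice alone, 411 genes were called, 85 raised and 326 lowered, and 343 of them were among the 1047 DEGs. With the series as a covariate, 234 were called, 38 raised and 196 lowered, and 226 of them were among the 1047. Leaving out 1 library of the 154Q group at a time gave 501 to 567 DEGs, and leaving out 1 of WT gave 623 (without WT-221) to 1079.

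**Figure D2:**
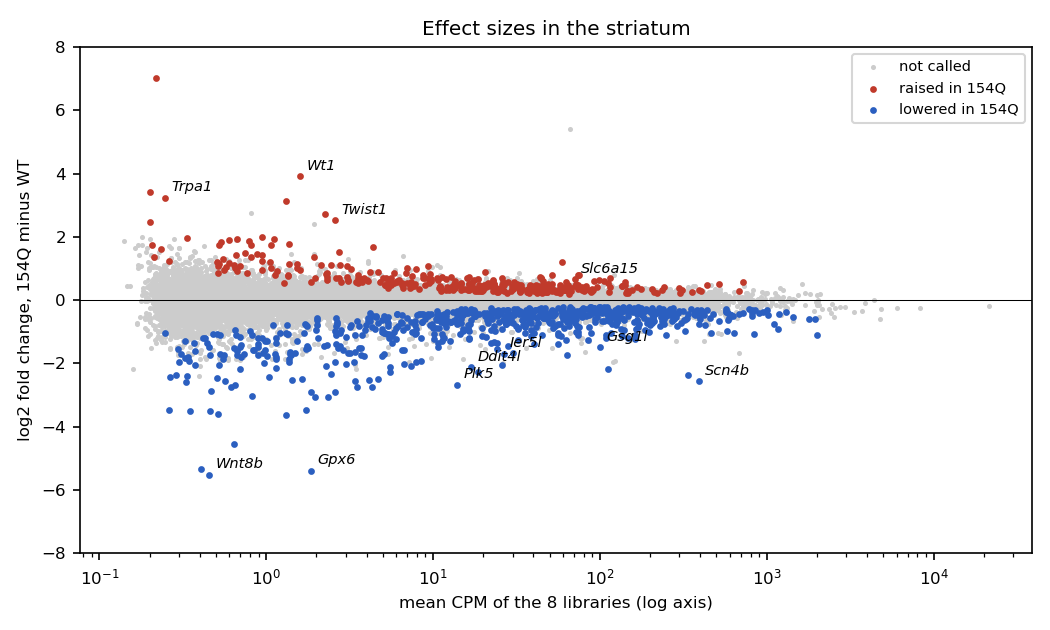
Log2 fold change (154Q minus WT) of each gene tested against its mean CPM over the 8 striatal libraries (log axis). Each point is a gene, red where raised, blue where lowered and grey where not called, and labelled genes are those named in the text. The 204 DEGs lowered by at least 1 spread over all levels of abundance, and few of the raised DEGs above 10 CPM exceed 1.

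Ier5l, an immediate early response gene, was the most clearly lowered gene. It was measured at 39.1, 36.2, 45.9 and 40.6 CPM in WT and at 12.6, 13.8, 11.3 and 12.6 CPM in 154Q. The groups were far apart and WT-220 was no exception, with a log2 fold change of -1.69 ± 0.09 (SE, adjusted p = 1.53e-06). Gsg1l, an auxiliary subunit of AMPA receptors, fell from 149, 137, 166 and 140 CPM to 51.6, 47.5, 56.3 and 55.1 CPM, a log2 fold change of -1.49 ± 0.08. Gpd1, the cytosolic glycerol-3-phosphate dehydrogenase, fell from between 77.4 and 83.0 CPM in WT to between 35.0 and 38.0 CPM in 154Q. Its log2 fold change was -1.15 ± 0.06, and neither group spanned more than 6 CPM. Hrh3, the histamine receptor H3, fell from 82.5 to 120 CPM in WT to 28.3 to 30.4 CPM in 154Q, a log2 fold change of -1.74 ± 0.10.

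Ddit4l, an inhibitor of mTORC1 signalling, was measured at 28.7, 29.8, 26.3 and 25.2 CPM in WT and at 6.50, 7.23, 5.70 and 5.91 CPM in 154Q. The log2 fold change was -2.12 ± 0.14 (adjusted p = 7.52e-06). Pdp1, the phosphatase that activates pyruvate dehydrogenase, had a log2 fold change of -1.19. Cabp7, a neuronal calcium-binding protein, fell by 1.22 on the log2 scale, Itpka, an inositol trisphosphate kinase of dendritic spines, by 1.22, and the protein kinase Hipk4 by 1.19. Plk5, a polo-like kinase expressed in neurons, was measured at 29.9, 21.6, 24.6 and 20.2 CPM in WT and at 3.95, 3.61, 3.25 and 4.41 CPM in 154Q. Its log2 fold change was -2.67 ± 0.23. The other 2 were low genes. Wnt8b, a secreted Wnt ligand, had 34, 18, 84 and 19 read pairs in WT and 0, 1, 0 and 2 in 154Q (adjusted p = 3.78e-05), and the pseudogene Gm17091 had 29, 21, 67 and 18 against 2, 0, 1 and 0 (adjusted p = 7.28e-05). At such counts the size of the change is poorly known, and no fold is given.

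The 12 raised genes with the lowest p had smaller changes. Slc6a15, a transporter of neutral amino acids, rose from 56.5, 56.7, 51.5 and 54.8 CPM to 83.3, 83.2, 91.2 and 90.4 CPM. The log2 fold change was 0.67 ± 0.07 (adjusted p = 0.000214). Gprasp2, a protein that sorts G protein-coupled receptors, rose by 0.61, Pnck, a calmodulin-dependent kinase, by 0.80, Rimklb, an enzyme of N-acetylaspartylglutamate synthesis, by 0.61, Nagk, a kinase of N-acetylglucosamine, by 0.47, and the urea cycle enzyme Asl by 0.68 on the log2 scale. Emid1 and Igsf10 rose by 0.87 and 1.10, and the transcribed pseudogene A930017M01Rik by 0.70. Larger changes were found for 2 regulators of transcription. Sfmbt2, a polycomb protein, was measured at 1.99, 2.11, 1.96 and 2.20 CPM in WT and at 7.84, 5.46, 6.45 and 7.01 CPM in 154Q, a log2 fold change of 1.70 ± 0.20. Twist1, a basic helix-loop-helix factor of mesenchymal development, was measured at 0.707, 0.472, 0.834 and 1.01 CPM in WT and at 5.74, 3.35, 5.07 and 3.44 CPM in 154Q, a log2 fold change of 2.52 ± 0.31. Trpa1, a cation channel gated by irritants, had 2, 2, 1 and 2 read pairs in WT and 19, 29, 13 and 16 in 154Q (adjusted p = 0.000254).

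**Figure D3:**
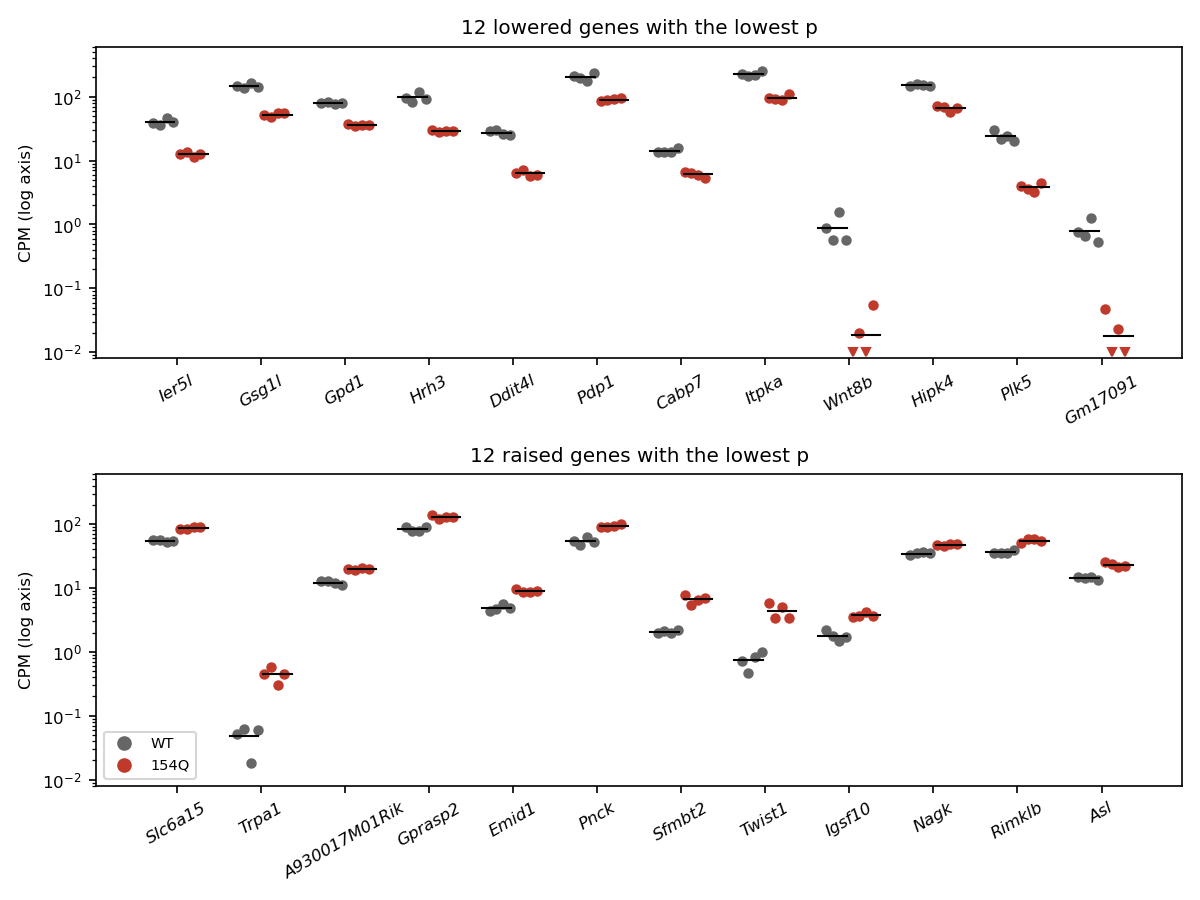
CPM of the 12 lowered (top) and 12 raised (bottom) DEGs with the lowest p among those without overlap between the groups, on log axes. Points are mice, grey for WT and red for 154Q, black lines are group means, and triangles at the lower edge are libraries with 0 reads. The groups are separate for every gene shown by the rule that chose them, and the spread within a group is small beside the distance between the groups for all but the low genes.

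Among DEGs with a mean of at least 1 CPM, the largest rises belonged mainly to transcription factors of embryonic development. Wt1 was measured at 0.131, 0.315, 0.0926 and 0.298 CPM in WT and at 3.26, 2.01, 3.93 and 2.74 CPM in 154Q, which are 5 to 10 and 99 to 168 read pairs per library. The log2 fold change was 3.93 ± 0.61 (adjusted p = 0.00363). Pax2 rose by 3.13 and Pou4f1 by 2.73 on the log2 scale, and with Twist1 and the long noncoding RNA 1110002J07Rik, which rose by 1.93, they made up the 5 largest. Pax2 had 13, 12, 2 and 14 read pairs in WT and 122, 144, 82 and 57 in 154Q. Pou4f1 had 12, 5, 82 and 1 in WT and 231, 162, 140 and 145 in 154Q. At such WT counts the size of the rises of Wt1, Pax2 and Pou4f1 is poorly known. The largest falls were of Gpx6, a glutathione peroxidase, with 71, 67, 458 and 70 read pairs in WT and 3, 3, 7 and 2 in 154Q, Tmprss6, a serine protease (-3.64), Gm765 (-3.47), the noncoding RNA Gm39043 (-3.06) and Alox12b, a lipoxygenase (-3.05). For Gpx6, Tmprss6 and Gm39043 WT-220 was the highest library. For Gm765 it was the lowest, at 0.296 CPM within the range of the 154Q libraries, against 4.03 to 4.22 CPM in the other 3 WT libraries.

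Of 30 markers shared by both SPN types, all 30 were tested, 8 were called lowered and none raised, and all 30 had a negative log2 fold change. Their median was -0.83, against -0.01 over all genes tested. Their mean log2 CPM was 7.89, 7.59, 8.67 and 7.63 in WT and 7.19, 6.69, 7.23 and 7.20 in 154Q, so the groups did not overlap even without WT-220. Without WT-220 alone the median was -0.60 and 7 were lowered, and without the 2 libraries with few cortical transcripts it was -0.58 and 12 were lowered. With the level of the cortical markers as a covariate, the median was -0.80 and 27 were lowered. The share of all genes tested that was lowered also rose. It was 3.77% in the main fit, 4.28% without WT-220, 7.45% without the 2 libraries and 10.3% with the covariate.

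Scn4b, a sodium channel beta subunit rich in SPNs, carried the largest change of these 30. It was measured at 589, 481, 1136 and 475 CPM in WT and at 122, 76.6, 122 and 132 CPM in 154Q. The log2 fold change was -2.57 ± 0.44 (adjusted p = 0.00527), and -2.17 (adjusted p = 0.000149) without the 2 libraries named above. Rgs4, a regulator that shortens G protein signals, fell from 757, 791, 775 and 740 CPM to 383, 340, 394 and 429 CPM, a log2 fold change of -0.99 ± 0.10. Unlike Scn4b, Rgs4 did not stand out in WT-220. The cannabinoid receptor Cnr1 fell by 1.13 and the Ras effector Rin1 by 0.81 on the log2 scale. Ppp1r1b was measured at 784, 643, 2092 and 608 CPM in WT and at 356, 196, 340 and 404 CPM in 154Q. The groups were separate, but the spread in WT was wide, and the log2 fold change of -1.67 ± 0.52 was not called (adjusted p = 0.0799). Without WT-220 alone it was -1.07 and not called either (adjusted p = 0.201), and without the 2 libraries it was -1.05 and called (adjusted p = 0.0304).

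Few markers of the 2 SPN types were called. Penk, the enkephalin precursor of D2 SPNs, was measured at 376, 300, 1275 and 296 CPM in WT and at 117, 61.8, 134 and 125 CPM in 154Q. It was the 1 of 7 D2 SPN genes called, with a log2 fold change of -2.36 ± 0.60 (adjusted p = 0.0382), and it was not called without WT-220 alone (-1.57, adjusted p = 0.0801). Without the 2 libraries it was -1.55 (adjusted p = 0.00532), and with the cortical covariate -2.04 (adjusted p = 1.42e-05). Drd2 (-1.62, adjusted p = 0.122) and Adora2a (-1.94, adjusted p = 0.0654) were not called, although all 4 154Q libraries lay below all WT libraries for both. Of 10 D1 SPN genes, the muscarinic receptor Chrm4 was called (-0.80, adjusted p = 0.0066), and Drd1 was not (-1.37, adjusted p = 0.0974). Drd1 was measured at 91.4, 67.4, 207.3 and 75.97 CPM in WT and at 44.1, 31.2, 46.4 and 50.04 CPM in 154Q. Tac1, the precursor of substance P, was measured at 80.2, 59.8, 258 and 67.5 CPM in WT and at 89.4, 48.0, 94.0 and 97.5 CPM in 154Q, so the groups overlapped. Isl1, a transcription factor of D1 SPNs, overlapped as well. Their log2 fold changes were -0.50 and -0.43 with WT-220 and 0.25 and 0.30 without it, none of them called. Of 10 genes that divide striosome from matrix 2 were lowered, against 3.77% of all genes tested. The 2 were Kremen1 (-0.32), a receptor of the Wnt pathway, and Id4 (-1.10), an inhibitor of basic helix-loop-helix factors. Without WT-220 alone neither was called (-0.29, adjusted p = 0.0719, and -0.72, adjusted p = 0.0720).

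Ratios between transcripts within a library do not depend on how libraries are scaled. They can depend on the amount of cortex, where these genes were also counted. Mean WT cortex held Penk at 34.7 CPM, Ppp1r1b at 84.2 CPM and Tac1 at 14.2 CPM. In 154Q-71 the 3 genes stood at 180%, 236% and 342% of these levels. The part of cortex in the ratios was not tested. The pairs below were chosen after their values were seen and get no test. The count of Penk was 4.68, 5.02, 4.95 and 4.39 times that of Tac1 in WT and 1.31, 1.29, 1.42 and 1.28 times in 154Q. WT-220 lay within the range of the other WT libraries here, although its level of each of the 2 genes was more than 3 times theirs. The ratio of Drd1 to Tac1 was 1.14, 1.13, 0.805 and 1.13 in WT and 0.493, 0.649, 0.494 and 0.513 in 154Q. That of Ppp1r1b to Tac1 was 9.78, 10.8, 8.12 and 9.01 in WT and 3.99, 4.08, 3.62 and 4.14 in 154Q. By contrast, the ratio of Drd2 to Drd1 was 0.935 to 1.22 in WT and 0.792 to 1.11 in 154Q, and that of Isl1 to Tac1 was 0.0547 to 0.0715 and 0.0659 to 0.0717, with overlap in both. Relative to Tac1, then, Penk, Ppp1r1b, Drd1, Drd2 and Adora2a were lower in every 154Q library than in every WT library, while Isl1 was not. These genes do not stand for their lists. Relative to Tac1, 8 of 30 shared SPN markers, 1 of 9 D1 SPN genes and 4 of 7 D2 SPN genes were lower in this way. The median log2 ratios of 154Q to WT were -0.59, 0.10 and -1.07. A ratio shows unequal change and not which of its members changed.

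**Figure D4:**
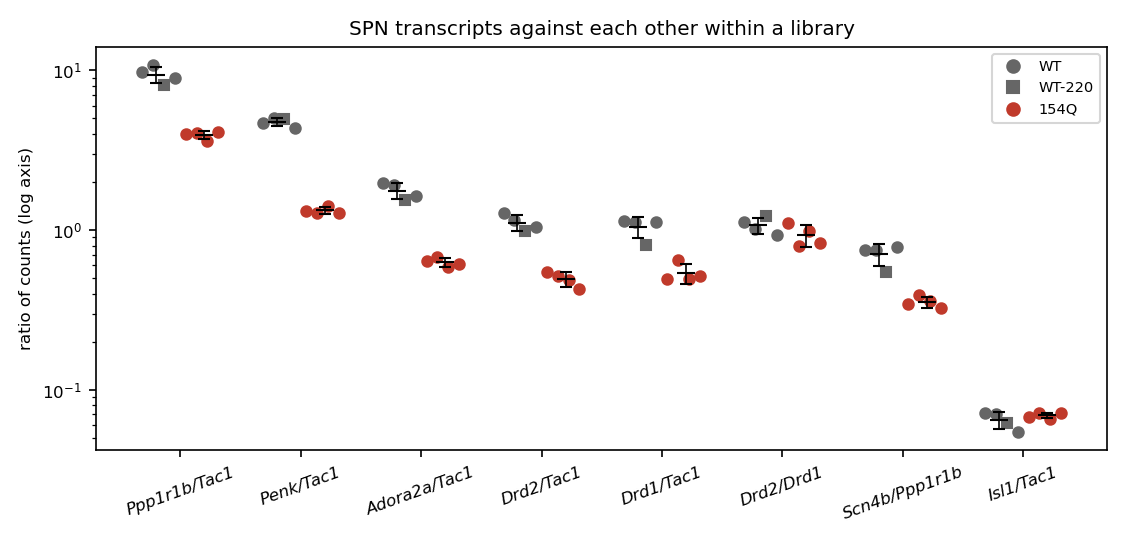
Ratio of the counts of 2 SPN transcripts within each striatal library (log axis). Points are mice, grey for WT and red for 154Q, the square is WT-220, and bars are the mean ± SD of 4 libraries per group. The groups are separate for the ratios of Ppp1r1b, Penk, Adora2a, Drd2 and Drd1 to Tac1 and of Scn4b to Ppp1r1b, and overlap for Drd2 to Drd1 and Isl1 to Tac1.

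A further set of striatal genes was chosen without either compared group. In the 154Q-AXH libraries, 33 genes were at least 4-fold higher in the striatum than in each other region. All 33 were tested, 31 had a negative log2 fold change, the median was -1.07, and 3 were called lowered: Gm39043, Ankk1, a kinase gene beside Drd2, and Ptprv. Ankk1 was measured at 2.44, 1.54, 4.91 and 2.11 CPM in WT and at 0.691, 0.339, 0.584 and 0.416 CPM in 154Q, a log2 fold change of -2.49 ± 0.51. Without WT-220 alone 2 were lowered, not Ptprv, and the median was -0.64. Without the 2 libraries with few cortical transcripts, 8 were lowered and the median was -0.63, while 7.45% of all genes tested were lowered. Of 35 tested hippocampus-enriched genes, 4 were lowered (11.4%), with a median of -0.05. Of 176 tested cerebellum-enriched genes 12 were lowered (6.82%), and 7 were lowered and 1 raised without WT-220. Of 89 tested brainstem-enriched genes 6 were lowered and 3 raised (10.1% called). The share called was 9.09% for the striatum-enriched genes and 5.69% over all genes tested, so that of the cerebellum-enriched genes was near the latter. The 1 gene enriched in cortex was too low to be tested.

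Interneuron genes were lowered in part. Of 16 GABA interneuron markers, 4 were lowered and none raised, with a median of -0.32, while 3.77% of all genes tested were lowered. Sst, the peptide of one interneuron class, was measured at 174, 192, 266 and 228 CPM in WT and at 120, 108, 109 and 117 CPM in 154Q, a log2 fold change of -0.92 ± 0.12 (adjusted p = 0.000947). Npy, a peptide that many Sst cells share, fell by 0.74 on the log2 scale. Cox6a2 and Pthlh, which mark parvalbumin cells of the striatum, fell by 0.89 and 0.78, and Pthlh was not called without WT-220. Pvalb itself was not called (-0.68, adjusted p = 0.132), and neither was Nos1 (-0.30, adjusted p = 0.356). Of the 16 markers 13 had a negative log2 fold change, and Calb2 (0.62) and Th (0.15) were among those without. Cortex holds these interneurons too, so the values do not say which tissue they belong to. None of 9 cholinergic markers was called by edgeR, with 6 at an unadjusted p under 0.05 and 3 called lowered by DESeq2. Their median was -1.67, and -0.70 without WT-220. Chat, the enzyme that makes acetylcholine, was measured at 9.17, 6.61, 22.8 and 7.11 CPM in WT and at 3.26, 1.57, 3.95 and 3.35 CPM in 154Q (adjusted p = 0.0649). Of the 9, none was called by edgeR without WT-220 alone, and without the 2 libraries 5 were lowered and 1 was raised, Ache, which breaks down acetylcholine (0.26, adjusted p = 0.0200). In that last fit 7.45% of all genes tested were lowered and 4.31% raised.

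Of all genes tested 3.77% were lowered, and 4.28% without WT-220. Of 31 genes of dopamine and cAMP signalling, 5 were lowered, with a median of -0.75, and of -0.39 without WT-220. The list shares members with those of SPN genes, Rgs4 and Chrm4 among the 5, and the others were Rgs14 (-0.88), the muscarinic receptor Chrm1 (-0.36) and the dopamine receptor Drd5 (-1.21), which was not called without WT-220. Of 34 neuropeptides and their receptors, 7 were lowered, and 5 without WT-220. Oprd1, the delta opioid receptor, was measured at 27.6, 26.5, 16.8 and 30.8 CPM in WT and at 13.7, 13.1, 15.0 and 14.1 CPM in 154Q. In this gene WT-220 lay nearest to the 154Q libraries, and the log2 fold change went from -0.86 with it to -1.02 without it. Of 22 calcium-binding proteins, 5 were lowered and none raised, with Hpcal1 (-0.73), Hpca (-0.91) and Pcp4 (-1.59) beside Cabp7. The fold of Pcp4 rested on WT-220, with 21.1 CPM against 5.66 to 7.31 CPM in the other WT libraries, and was -0.91 without it.

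Of 36 glutamate receptor genes and AMPA auxiliary subunits, 6 were lowered and none raised, with a median of -0.17. Beside Gsg1l these included the metabotropic receptor Grm3 (-0.42), the NMDA subunit Grin2c (-0.44) and the AMPA auxiliary subunit Cacng3 (-0.42). Of 35 genes of synaptic scaffold and release, 6 were lowered and 1 raised, against 3.77% lowered and 1.92% raised of all genes tested. Homer1, which links metabotropic receptors to calcium stores, fell from 220.6, 245, 226 and 293 CPM to 119, 131, 128 and 136 CPM, a log2 fold change of -0.94 ± 0.10. The scaffolds Shank3 (-0.54), Dlgap3 (-0.65) and Dlg4, which encodes PSD-95 (-0.40), fell with it. The one raised was Syn3, a vesicle protein (0.74), but in the counts of 1 strand its log2 fold change was -0.11. Of 21 genes of GABA transmission 1 was called (4.76%, near the 5.69% over all genes tested). This was Gabrd, the delta subunit of extrasynaptic GABA-A receptors, which was lowered. It was measured at 111, 125, 145 and 100 CPM in WT and at 54.4, 48.4, 45.1 and 53.0 CPM in 154Q, a log2 fold change of -1.26 ± 0.14.

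Ion channels changed in both directions. Of 55 potassium channel genes, 6 were lowered (10.9%) and none raised, and 10 were lowered without WT-220. Over all genes tested 3.77% were lowered, and 4.28% without WT-220. Kcnh4, a voltage-gated channel rich in forebrain, was measured at 37.2, 33.9, 37.1 and 30.8 CPM in WT and at 15.1, 14.7, 10.8 and 13.4 CPM in 154Q, a log2 fold change of -1.36 ± 0.22. Its relative Kcnh3 fell by 0.65, the Kv4 partner Kcnip3 by 0.60 and the leak channel Kcnk1 by 0.42. Of 38 calcium and sodium channel genes, 5 were lowered and 3 raised. Ryr1, a ryanodine receptor that releases calcium from stores, was measured at 44.9, 37.5, 50.1 and 34.4 CPM in WT and at 11.4, 9.23, 10.8 and 9.40 CPM in 154Q. The log2 fold change was -2.03 ± 0.21, with a wide gap between the groups. Cacnb1, a calcium channel beta subunit, fell by 0.45. The raised were Trpa1, Hcn3 (0.51) and Trpc4 (0.74), which had 20.2, 19.5, 22.2 and 19.7 CPM in 154Q against 7.91 to 15.4 CPM in WT and was not called without WT-220 (0.57, adjusted p = 0.0679).

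**Figure D5:**
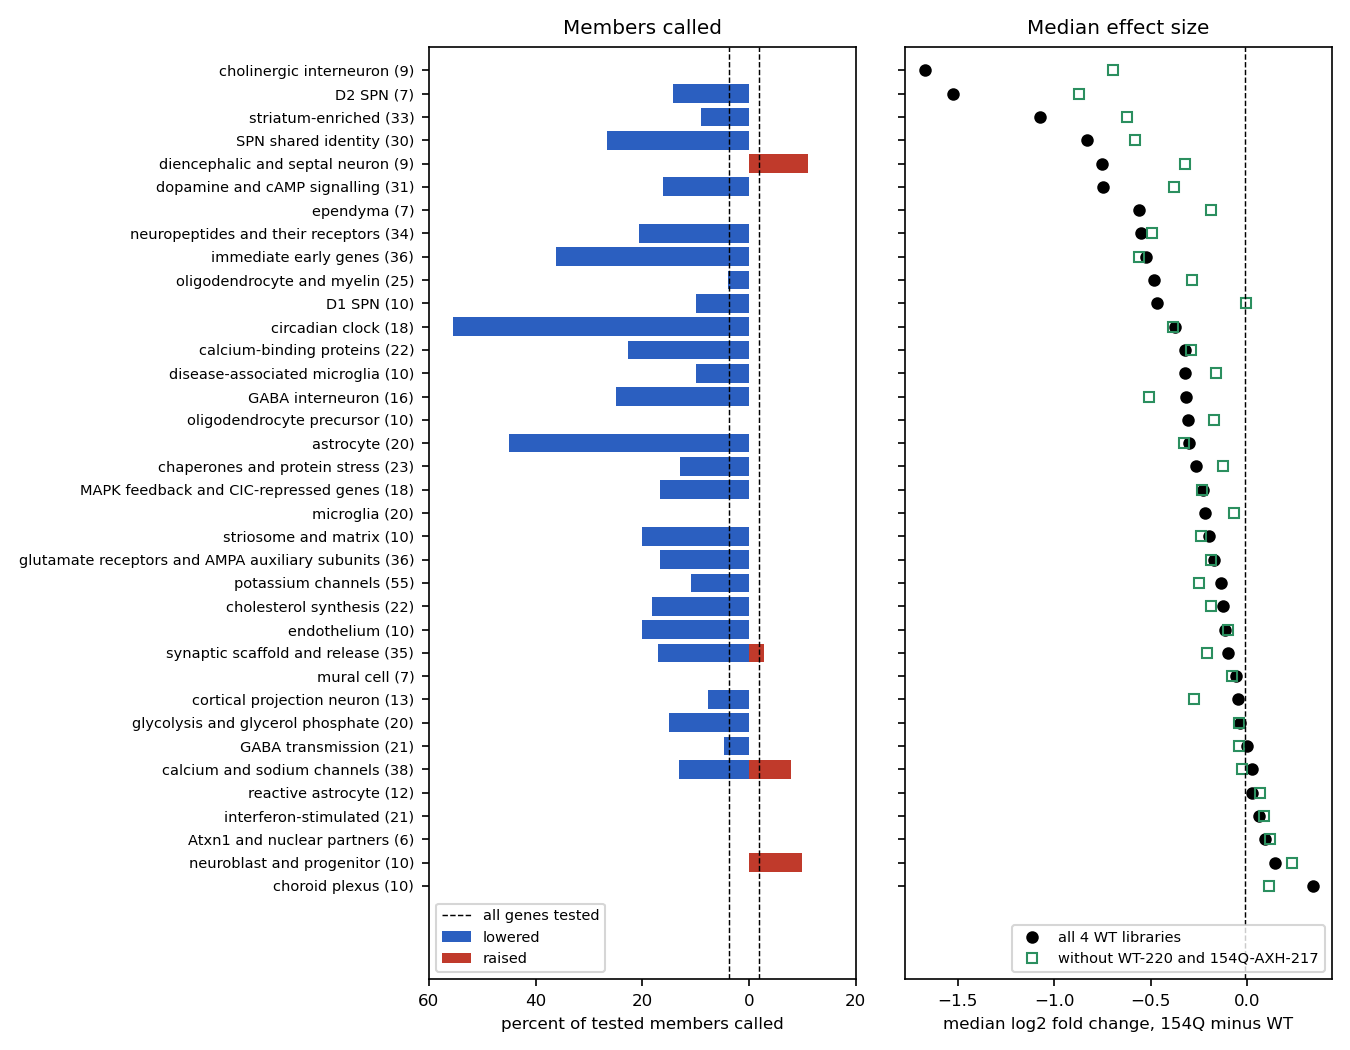
Gene lists ordered by median log2 fold change, with the number of members tested in brackets. Left, percent of tested members called lowered (blue) and raised (red), with dashed lines at 3.77% lowered and 1.92% raised for all genes tested. Right, median log2 fold change over all tested members (circles) and without WT-220 and 154Q-AXH-217 (squares), with a dashed line at the median of all genes. SPN, cholinergic and myelin medians move toward 0 without these libraries, and those of immediate early, astrocyte and circadian genes hardly move.

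Against 3.77% of all genes tested, immediate early genes, which neurons transcribe upon activity, were lowered in 13 of 36 and raised in none. Their median was -0.52, and -0.56 without the 2 libraries with few cortical transcripts, where 17 were lowered. In that fit 7.45% of all genes tested were lowered. Egr3, a zinc finger factor, was measured at 157, 170, 184 and 230 CPM in WT and at 91.5, 102, 93.6 and 95.6 CPM in 154Q, a log2 fold change of -0.95 ± 0.11 (adjusted p = 0.000526). The secreted protein precursor Vgf fell from between 383 and 419 CPM to between 260 and 282 CPM. Arc and Fos were looked at after their values were seen. Arc, a regulator of AMPA receptors, was called (-1.01, adjusted p = 0.0144) with WT-221 highest, and Fos was at 25 to 40.6 CPM in WT and 19.5 to 37.4 CPM in 154Q and was not called (log2 fold change 0.00 ± 0.24).

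Against 3.77% of all genes tested, clock genes were lowered in 10 of 18, the highest share of any list (median -0.37). They included the output genes Ciart (-1.21) and Tef (-0.47), the period gene Per1 (-0.65) and the forebrain activator Npas2 (-0.42). Npas2 was tight within groups, at 39.1, 38.3, 39.0 and 39.1 CPM in WT and 32.1, 29.9, 28.2 and 26.1 CPM in 154Q. Per1 also stands in the list of immediate early genes. The hour at which each animal was taken is not given in the sources used here, and its part in these values was not tested.

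CIC represses genes of MAPK feedback. Of 18 genes of this list, 3 were lowered (5 without WT-220), none was raised and 15 had a negative log2 fold change (median -0.23). Over all genes tested, 3.77% were lowered in the main fit and 4.28% without WT-220. Spred1, an inhibitor of Ras signalling, fell by 0.40, the phosphatase Dusp7 by 0.49 and Spry2, a feedback inhibitor of receptor tyrosine kinases, by 0.41. Spry2 was measured at 61.3, 60.9, 80.5 and 69.3 CPM in WT and at 53.3, 50.9, 49.5 and 51.7 CPM in 154Q. The groups did not overlap.

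The promoters of the DEGs were searched for the octamer that CIC binds, spelled TGAATGAA, TGAATGGA, TCAATGAA or TCAATGGA on either strand, in RefSeq windows of 250 bases before to 50 after a gene start (GRCm38.p6). Windows were matched by symbol for 760 of the 1047 DEGs, and 25 of these, or 3.29%, held an octamer, against 3.07% of 12771 tested genes and 4.45% of all 27025 genes with a window. The share was 3.07% among raised and 3.41% among lowered DEGs. A short motif of the X-box that RFX factors bind, spelled GTTGCCA on either strand, was found in 4.34% of the windows of DEGs and 4.83% of those of tested genes. Neither share stood far from that of the tested genes. The 250 bases before the start are shown for 3 DEGs with an octamer, a MAPK feedback gene, an immediate early gene and a raised gene, with the octamers in capitals. Nr4a1 and Wiz were chosen after their values were seen.
Spry2 (minus strand, chr14:105896820-105897069): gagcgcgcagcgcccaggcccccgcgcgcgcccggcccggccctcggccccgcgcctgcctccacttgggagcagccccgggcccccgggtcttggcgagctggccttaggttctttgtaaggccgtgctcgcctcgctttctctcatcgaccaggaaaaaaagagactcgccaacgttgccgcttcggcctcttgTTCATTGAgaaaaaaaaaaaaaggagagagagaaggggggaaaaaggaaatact
Nr4a1 (plus strand, chr15:101266596-101266845): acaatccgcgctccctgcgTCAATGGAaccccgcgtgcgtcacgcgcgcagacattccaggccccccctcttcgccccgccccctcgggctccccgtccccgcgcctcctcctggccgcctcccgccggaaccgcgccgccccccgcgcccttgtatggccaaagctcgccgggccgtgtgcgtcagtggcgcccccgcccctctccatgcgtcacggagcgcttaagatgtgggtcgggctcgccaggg
Wiz (minus strand, chr17:32387818-32388067): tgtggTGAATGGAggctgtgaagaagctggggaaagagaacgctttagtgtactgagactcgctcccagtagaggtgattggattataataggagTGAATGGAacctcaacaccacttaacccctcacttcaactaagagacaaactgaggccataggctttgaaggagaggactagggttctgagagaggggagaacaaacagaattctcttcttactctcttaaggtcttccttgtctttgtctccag
In Spry2 the octamer lies on the other strand and its printed first base is 54 bases before the start, in Nr4a1 it is 231 bases before, and Wiz holds 2, at 245 and 155 bases before. Nr4a1, a nuclear receptor of the immediate early class, fell by 0.76 (adjusted p = 0.0421, and 0.0842 without WT-220), and Wiz, a zinc finger protein, rose by 0.46 (adjusted p = 0.00152). A match of letters is not a site of binding.

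Of 20 astrocyte markers, 9 were lowered, none was raised and all 20 had a negative log2 fold change (median -0.30). The share of all genes tested that was lowered was 3.77%. Gja1, the gap junction protein connexin 43, was measured at 137, 139, 136 and 143 CPM in WT and at 117, 113, 118 and 118 CPM in 154Q, a log2 fold change of -0.25 ± 0.05 (adjusted p = 0.015). Glul, glutamine synthetase, fell by 0.37, the neurotensin receptor Ntsr2 by 0.36 and Ppp1r3c, a subunit that promotes glycogen synthesis, by 0.45. Gfap was not called (-0.43, adjusted p = 0.0843), and none of 12 tested reactive astrocyte genes was called by edgeR, with 3 at an unadjusted p under 0.05 and 1 called lowered by DESeq2. The mean log2 CPM of the list was 7.30, 7.41, 7.37 and 7.40 in WT and 7.10, 7.10, 7.01 and 7.03 in 154Q, with WT-220 inside the range of WT.

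Of 25 myelin genes all had a negative log2 fold change with a median of -0.49, which was -0.30 without WT-220. Only Gpd1, which is not limited to oligodendrocytes, was called (4%, near the 5.69% over all genes tested). Mbp, a major myelin protein, was measured at 4848, 5108, 8186 and 4799 CPM in WT and at 4222, 4067, 3428 and 3611 CPM in 154Q (-0.58, adjusted p = 0.176). WT-220 was the highest library, and the groups were separate with or without it. Of 20 microglial genes none was called by edgeR, 8 had an unadjusted p under 0.05 and DESeq2 called 1 lowered. Of 10 oligodendrocyte precursor genes none was called by either tool, and 4 had an unadjusted p under 0.05. Of 10 tested genes of disease-associated microglia 1 was lowered, Ctsd (-0.30), a lysosomal protease, against 3.77% of all genes tested. Among 10 endothelial genes Cldn5 (-0.48) and Slc2a1 (-0.29) were lowered, both of the blood-brain barrier. Without WT-220, Ctsd, Cldn5 and Slc2a1 were not called (adjusted p = 0.0820, 0.0574 and 0.0588). None of 7 mural, 7 ependymal or 10 choroid plexus genes was called by edgeR, with 1, 2 and 0 at an unadjusted p under 0.05, and DESeq2 called 1 ependymal gene raised. Dcx, a marker of migrating neuroblasts, was the 1 of 10 neuroblast and progenitor genes raised (0.69), with 154Q-75 highest at 45.6 CPM, and was not called without WT-220 (0.61, adjusted p = 0.0966). Of 9 diencephalic and septal genes 1 was raised, Trpc4.

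Of 22 genes of cholesterol synthesis, 4 were lowered, Mvd (-0.48), Msmo1 (-0.42), Fdft1 (-0.32) and Ebp (-0.39), and none was raised. Without WT-220 7 were lowered and Ebp was not called. For this list and those that follow, the lowered share of all genes tested was 3.77%, and 4.28% without WT-220. Of 23 chaperone and stress genes, 3 were lowered, the inducible Hspa1b (-1.56), Ddit3 (-0.61) and Dnajb5 (-0.46). None of 21 interferon-stimulated genes was called by edgeR, 1 had an unadjusted p under 0.05 and DESeq2 called 1 raised. Of 20 genes of glycolysis and glycerol phosphate 3 were lowered, with a median of -0.04. Among 13 cortical projection neuron genes 1 was lowered, Lamp5, a protein of upper-layer neurons, at 217.5, 293, 124 and 254 CPM in WT and 96.4, 109, 87.1 and 121 CPM in 154Q. The other 12 were not called (median of the 13, -0.05), and the median was -0.28 without the 2 libraries with few cortical transcripts, where 5 were lowered. In that fit 7.45% of all genes tested were lowered.

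The striatal effect was set against that of the other regions in 1 model of the 40 WT and 154Q libraries of 5 regions, by testing the difference of the log2 fold changes. Against the mean of the other 4 regions, 373 of 23359 genes differed (1.6%), 298 of them lower and 75 higher in the striatum. With the mouse as a block the number was 425 (1.82%), and without the striatal library of WT-220, a fit chosen after seeing the data, 192 were lower and 25 higher (0.91%). Ddit4l had log2 fold changes of -0.23 in cerebellum, -0.23 in brainstem, -0.57 in hippocampus, -1.41 in cortex and -2.12 in striatum. The difference from the mean was -1.51 ± 0.15 (adjusted p = 2.54e-07). Pdp1 differed by -0.91 and Rgs4 by -0.76, and in the cortex these had log2 fold changes of -1.0 and -0.63. Adra2c, an adrenergic receptor, differed by -1.24, and Acvrl1, a receptor of the TGF-beta family, by -1.20. The log2 fold change of Acvrl1 was -1.36 in the striatum and between -0.21 and -0.11 in each other region.

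Against the cortex alone, 2 genes differed (0.00856%), Acvrl1 (-1.15) and Adcy5, the main adenylyl cyclase of SPNs (-1.21), each with an adjusted p of 0.0416. With the mouse as a block none was called by edgeR, with 1474 at an unadjusted p under 0.05, and both had an adjusted p above 0.1 (0.12 and 0.115). Without the block 1257 genes had an unadjusted p under 0.05, and without the striatal library of WT-220 3 genes differed (0.0126%). The next lowest p values belonged to Itga9, Ryr1, the vesicular glutamate transporter Slc17a8 and Cnr1, which were not called. Cortical transcripts in the striatal libraries were given above, and their part in this count was not tested. Against the hippocampus, 389 genes differed (1.67%), 267 lower and 122 higher in the striatum, with 473 (2.02%) under the block and 300 (1.26%) without the striatal library of WT-220. The number was 175 without 3 doubted libraries, 154Q-76 of hippocampus and WT-221 and 154Q-76 of cortex, 160 without mouse WT-220, 165 without mouse WT-221 and 93 without mouse 154Q-76. Ddit4l and Pdp1 were again among the lowest p values, beside Gpr161 (1.58) and Dhx33 (1.03), with hippocampal log2 fold changes of -0.99 and -0.86. The long noncoding RNA Gm35281 had the lowest p, with hippocampal and striatal log2 fold changes of 5.0 and -1.44, and its effect in the cerebellum could not be estimated. Penk differed from the mean of the other regions by -2.09 (adjusted p = 0.0329), and not without WT-220 (adjusted p = 0.315).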

How the data were processed

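Striatal polyadenylated RNA of WT, 154Q and 154Q-AXH mice was sequenced by the authors, and the deposited values are raw read-pair counts per gene without normalization. The submitters' processing notes name Trimmomatic 0.36, STAR 2.7.2d, DESeq2 1.28.1 and the builds GRCm38.p6 and mm10. The unstranded count column was used, so reads of overlapping genes on opposite strands cannot be told apart. The mean share of reads on either strand was near equal in each library. Genes carry GENCODE positions and symbols for 54165 of 54232 identifiers, and the row of a human transgene was left out.

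Counts were fitted in R 4.3.3 with edgeR 4.0.16 (filterByExpr, TMM, glmQLFit, glmQLFTest). All 12 striatal libraries entered, so that 3 genotypes shared 1 estimate of spread, and 154Q was compared with WT. Calls used a Benjamini-Hochberg adjusted p under 0.05. Errors are SE of the log2 fold change or SD, as stated. Depth was 28058359 to 54719126 read pairs on genes per striatal library. In counts simulated at these depths for 18200 genes with 198 changed, 42.4% of changes of 1.5-fold and 73.7% of 2-fold were called, with 6 false calls. Each gene was drawn independently, without shifts shared by many genes such as that of cortical transcripts in WT-220. The simulation therefore cannot say how many false calls such shifts give. P-values measure the spread between mice.

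Named genes were the 12 raised and 12 lowered DEGs with the lowest p and no overlap between the groups, the 5 raised and 5 lowered with the largest fold change at a mean of 1 CPM or more, up to 4 DEGs of each list beside its first members not called, the 4 called region-enriched genes with the lowest p, the 6 lowest p of each regional test, and Atxn1, Cic, Rfx1, Zbtb5, Zkscan1, Xist and Ddx3y. The comparison, gene lists and tests were chosen with earlier results of these data known. Region-enriched genes came from 154Q-AXH libraries, without 1 cortical library whose labels conflict.

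Regional differences were tested in 1 edgeR model of WT and 154Q libraries. The mouse numbers tie regions to the same animal by the labels, so the mouse was also entered as a block. The labels are in doubt for at least 1 WT number. In WT cortex Xist reached 476 CPM and Ddx3y fell to 0.909 CPM. The WT striatal libraries had Xist at 5.93 CPM or less and Ddx3y at 61.8 CPM or more. The block may thus join libraries of different animals. Deviations from the group mean in the striatum and in another region of the same mouse correlated across genes at r = -0.20 to 0.20. Alternatives were DESeq2 1.42.0, its size factors, no filter, fewer libraries, covariates and the counts of 1 strand. Promoter windows came from RefSeq (GRCm38.p6). Some genes that the rule names are not reported here.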

Additional observations from a re-analysis of the deposited data

Results flagged for a closer look

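In 33 of 254 gene and group pairs 1 library stood apart from the other 3 of its group, by the gap to the nearest library over the range of the 4. Chance gives about 1 in 20 groups, and 19 of the 33 were WT-220. WT-221 was highest and apart in CPM for Cabp7 (15.9), Fos (40.6) and Arc (367). 154Q-76 was highest and apart in CPM for Pnck (102) and Ttr (2286). WT-220 was highest and apart in CPM for Gpx6 (8.48), Ppp1r1b (2092), Penk (1275), Tac1 (258), Isl1 (16), Adora2a (397), Id4 (252), Chat (22.8) and Pthlh (6.97). WT-220 was highest and apart in CPM for Hpca (2344), Pcp4 (21.1), Mbp (8186), Acvrl1 (51.8), Slc17a8 (15.3) and Atxn1 (64). 154Q-75 was highest and apart in CPM for Gpx6 (0.164) and Xist (507). WT-220 was lowest and apart in CPM for Gm765 (0.296), Slc17a7 (470), Tbr1 (43.7) and Zkscan1 (24.8). 154Q-71 was lowest and apart in CPM for Tac1 (48), Slc5a7 (2.03) and Adcy5 (264). 154Q-71 was highest and apart in CPM for Dnajb5 (167). WT-70 was highest and apart in CPM for Ttr (1399). WT-77 was lowest and apart in CPM for Ddx3y (62). 154Q-75 was lowest and apart in CPM for Ddx3y (0.958).

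Of 125 genes named here and tested in all regions, 48 had a striatal log2 fold change that differed from the mean of the other regions, tested as a difference in 1 model. Many were named for a low p in the striatum or in these regional tests, so a high share follows from the choice. Over all genes the share was 373 of 23359 (1.6%). Adora2a, Drd2, Ppp1r1b, Slc17a8, Adcy5 and Dhx33, which follow, were not called within the striatum. The difference of Penk was not called without WT-220, as given above. The striatal effect was lower for Ddit4l (-1.51), Pdp1 (-0.91), Rgs4 (-0.76), Adra2c (-1.24), Acvrl1 (-1.20), Sptbn5 (-1.31), Ryr1 (-1.74), Itga9 (-1.26), Gpd1 (-0.74) and Adcy5 (-1.13). It was also lower for Gsg1l (-0.88), Ptprv (-2.35), Cnr1 (-0.97), Hrh3 (-0.93), Hipk4 (-0.72), Wnt8b (-5.59), Plk5 (-1.10), Ier5l (-0.84), Adora2a (-1.81) and Ciart (-0.94). It was also lower for Vgf (-0.45), Chrm4 (-0.78), Alox12b (-1.80), Gpx6 (-5.27), Drd2 (-1.98), Kcnip3 (-0.40), Id4 (-0.78), Slc17a8 (-0.92), Spry2 (-0.38), Cabp7 (-0.57) and Dlgap3 (-0.44). It was also lower for Scn4b (-2.33), Mvd (-0.41), Cacnb1 (-0.32), Penk (-2.09), Homer1 (-0.53), Ppp1r1b (-1.21), Ddit3 (-0.36) and Kremen1 (-0.33). It was higher for Sfmbt2 (0.99), Gpr161 (0.83), Wiz (0.32), Trpc4 (0.69), Wt1 (2.78), Twist1 (1.52), Emid1 (0.54), Slc6a15 (0.28) and Dhx33 (0.39).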

How the results depend on the processing

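The main result, 1047 DEGs, went to 1725 with DESeq2, 253 when tested against a fold of 1.2, 234 with the series of mouse numbers as a covariate, 411 with WT mice 70 and 77 alone, 2179 without WT-220 and 154Q-AXH-217, and 3282 with cortical markers as a covariate. The 257 DEGs that changed by at least 1 became 142, 103, 144 and 420 against a fold of 1.2, with the series, with the 2 WT mice and with the cortical covariate. The 97 calls among list members became 33, 42, 193 and 264 with the series, the 2 WT mice, without the 2 libraries and with the cortical covariate. The 3 called striatum-enriched genes became 0, 0, 8 and 21 in the same order, and 8 when 154Q-AXH was left out. Leaving out 1 library at a time gave 501 (without 154Q-69) to 1079 (without WT-220) DEGs, 157 to 253 that changed by at least 1, 50 to 96 calls in lists and 0 to 3 striatum-enriched genes. The cause of these moves was not tested. Syn3 reversed with the counts of 1 strand (-0.11). Of 103 called genes named here, 55 kept direction and call with the series, 66 with the 2 WT mice alone, 61 against a fold of 1.2, 97 with no filter, 102 with DESeq2 size factors and 77 to 96 when 1 library was left out. The comparison within the striatum could not be paired, because WT and 154Q share no mouse numbers. With the replicate block, that is the fit paired over regions by the labelled mouse number, the differences from cortex went from 2 to 0. The 373 differences from the mean of the other regions (298 lower and 75 higher) became 192 lower and 25 higher without the striatal library of WT-220, and 127 (without mouse 220) to 516 when 1 mouse was left out. Differences from cortex ranged from 0 to 3 without 1 mouse, and were 0 without the doubted hippocampal and cortical libraries. The 389 differences from hippocampus became 175 without those, 259 with no filter, and 93 (without 154Q-76) to 458 without 1 mouse.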
